A study of Mus musculus with 6 samples.

Results

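The genes examined here make, load and regulate the H2 molecules, the mouse major histocompatibility complex, which show peptides to T cells. They were chosen by name: every probe of the array whose gene name begins with H2-, and the probes of B2m, Tap1, Tap2, Tapbp, Tapbpl, Psmb8, Psmb9, Psmb10, Psme1, Psme2, Erap1, Cd74 and Ciita. This gave 71 of 55681 probes and 54 of 34797 gene names. RNA of immortalized mouse embryonic fibroblasts (MEF) was labelled with Cy3 and hybridized to 6 arrays of 1 slide, 2 for each of 3 groups: WT MEF (strain label W4), TIA1 KO MEF (strain label BALB/c) and TIAR KO MEF (strain label C57BL/6). TIA1 and TIAR, the latter encoded by Tial1, are RNA-binding proteins that act on splicing, mRNA decay and translation. All groups were cell lines kept in culture, and the labels name no treatment. Because each group carries its own strain label, the effects of genotype, of strain and of the cell line itself cannot be told apart. For TIA1 KO MEF the row of the slide, which differed from that of the other 4 arrays, cannot be told apart either. The methods call the 2 arrays of a group independent experiments, and each group is 1 line, so p-values measure the spread between samples of a line and not between lines.

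Class I molecules consist of an H2 heavy chain and the light chain β2-microglobulin (B2m). They hold peptides that the proteasome cuts in the cytosol and that the transporter Tap1/Tap2 carries into the endoplasmic reticulum. Cells exposed to interferon gamma replace proteasome subunits by Psmb8, Psmb9 and Psmb10, which form the immunoproteasome, and raise the transporter and the heavy chains through the transactivator Nlrc5. Class II molecules, driven by Ciita, are made mainly by professional antigen-presenting cells. H2 genes are among the most polymorphic of the mouse genome. C57BL/6 carries the H2 haplotype b and BALB/c the haplotype d, and one probe sequence was used for all strains.

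Values are log2 intensities after background correction and normalization between arrays, so that a difference of 1 is a 2-fold change. They are given as the values of replicates 1 and 2, followed by the group in parentheses or in the order WT, TIA1 KO and TIAR KO. A probe was called changed at an adjusted p under 0.05 and a fold change over 2 in a limma fit across all probes. Of the member probes, the scanner software rated 41 and 40 (WT), 27 and 32 (TIA1 KO) and 38 and 35 (TIAR KO) as well above background. For 26 of them this held on none of the 6 arrays. Over all probes these ratings were 23531 and 26254, 16000 and 19920, and 24754 and 25985. The median local background was 89.5 and 58 (TIA1 KO), and it lay between 42 and 52 on the other 4 arrays. Depth in the sense of reads does not apply to arrays, and the 2 arrays per group limit the precision of every value.

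The knockout labels were checked first. The brightest Tia1 probe read 10.72 and 8.54 (WT), 7.87 and 8.44 (TIA1 KO) and 9.56 and 9.58 (TIAR KO), and its change in TIA1 KO MEF did not pass the test (log2 fold change −1.47 ± 0.79, standard error; adjusted p = 0.288). A further Tia1 probe read 9.56 and 9.90 (WT) and 7.57 and 8.65 (TIA1 KO), without overlap, and was not called either (−1.62 ± 0.42, adjusted p = 0.116). The remaining Tia1 probe, not well above background in WT MEF, read 7.44 and 7.25 (WT) and 7.88 and 8.54 (TIA1 KO). A second Tial1 probe read 11.71 and 11.09 (WT) and 10.00 and 9.65 (TIAR KO) and fell by 1.58 on the log2 scale (adjusted p = 0.0254). The brightest Tial1 probe, with 1 WT spot left out as an outlier, read 13.22 in WT MEF and 9.57 and 11.60 (TIAR KO), a change of −2.63 ± 0.87 that did not pass the test (adjusted p = 0.200). Both Tial1 probes thus read lower in the TIAR KO libraries, and the first 2 Tia1 probes read lower in the TIA1 KO libraries than on either WT array. The files do not say whether the probes lie in the deleted parts, and other measures of the lines were not analysed here.

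The MEF label was checked against fibroblast markers. Vimentin (Vim) and the collagens Col1a1 and Col1a2 were bright on all 6 arrays. The proteoglycan Lum was well above background on no array of any group, and the receptor Pdgfra on neither WT array (6.37 and 6.40). Decorin (Dcn) read 6.57 and 6.62 (WT), 9.24 and 9.29 (TIA1 KO) and 15.67 and 15.82 (TIAR KO), and Thy1 read 6.63 and 6.98, 7.11 and 7.48, and 14.84 and 14.74. Of 11 fibroblast marker genes, 7 (TIA1 KO) and 8 (TIAR KO) were higher than in WT MEF, where 2.18% and 3.39% of all probes were. The collagen Col3a1 rose by 6.32 and 6.60 on the log2 scale, the receptor Pdgfrb by 3.60 and 3.81 and fibronectin (Fn1) by 2.74 and 2.20. The mean log2 value of the list was 11.59 and 11.43 (WT), 13.71 and 13.77 (TIA1 KO) and 15.16 and 15.24 (TIAR KO). Fewer cells of one kind and less RNA per cell cannot be told apart in RNA of whole cultures, and the part of this difference in the results that follow was not tested.

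In TIAR KO MEF the classical class I heavy chains, most of the measurable class Ib chains, both transporter subunits and 2 immunoproteasome subunits were lower than in WT MEF. Of the 71 member probes, 22 were called down, where 2.37% of all probes were, and 2 were called up, where 3.39% of all probes were. By genes, 18 of 54 fell and 2 rose. The median log2 change over the 71 probes was −0.10 and that over all probes −0.02, since 47 member probes were not called and many of them lay near background. At an unadjusted p under 0.05, 38 of the 71 member probes and 20.2% of all probes differed.

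Both genes of classical class I heavy chains on the array fell in TIAR KO MEF. H2-K1 (chromosome 17, 34133055 to 34133114, mm9) read 15.88 and 16.21 (WT), 14.97 and 15.03 (TIA1 KO) and 13.30 and 13.40 (TIAR KO). The fall in TIAR KO MEF was 6.46-fold (log2 fold change −2.69 ± 0.17, adjusted p = 0.00125). A second H2-K1 probe (34133984 to 34134043) read 15.37 and 14.81, 13.73 and 13.49, and 11.96 and 11.98, an 8.68-fold fall in TIAR KO MEF. H2-D1 (35403886 to 35403945) read 14.83 and 14.85 (WT), 14.22 and 14.03 (TIA1 KO) and 12.25 and 12.11 (TIAR KO), where it was 6.32-fold lower (−2.66 ± 0.14, adjusted p = 0.000755). For all 3 probes the groups did not overlap, and TIA1 KO MEF lay between WT and TIAR KO MEF.

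**Figure D1:**
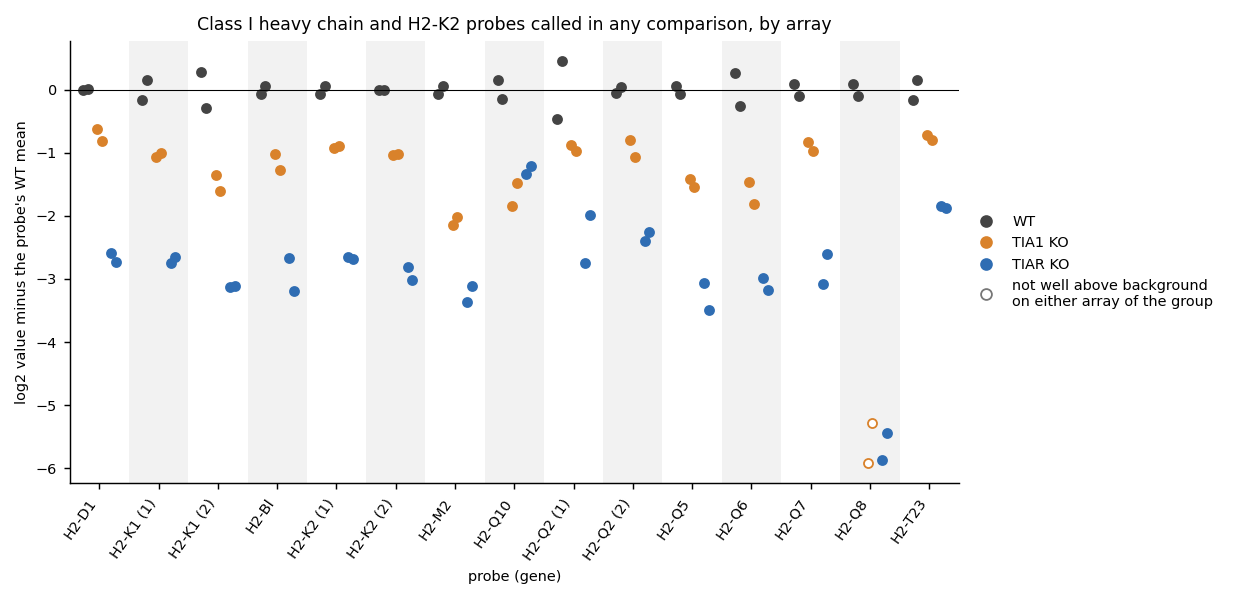
Log2 value of each array minus the mean of the 2 WT arrays of the same probe (vertical axis), for the class I heavy chain and H2-K2 probes called in any comparison (horizontal axis, probes of 1 gene numbered), with 1 point per array and open points for groups not well above background on either array. For H2-D1 and both H2-K1 probes the TIA1 KO arrays lie between the WT and the TIAR KO arrays, and for H2-Q8 both knockouts lie more than 5 below WT.

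The class Ib genes encode heavy chains that are less polymorphic and often have narrower tasks. Of their 35 probes, 10 were called down and 0 up in TIAR KO MEF by limma, where 2.37% and 3.39% of all probes were, and 17 were well above background on no array. H2-Q8, a Qa region gene, fell farthest of the class Ib probes: it read 13.10 and 12.92 (WT), 7.08 and 7.72 (TIA1 KO) and 7.13 and 7.57 (TIAR KO), a log2 change of −5.66 ± 0.20 (adjusted p = 0.000288). It was well above background on 1 TIAR KO array and on no TIA1 KO array. H2-Q5 read 15.47 and 15.33, 13.98 and 13.86, and 12.34 and 11.91 in the same order of groups, a 9.67-fold fall in TIAR KO MEF. The H2-Q5 probe has no genome position and was not matched to RefSeq. H2-M2 read 12.93 and 13.05 (WT) and 9.63 and 9.88 (TIAR KO), a 9.43-fold fall. Its second, dim probe read 7.73 and 7.58 (WT) and was at background in both knockouts, with bounds of at least 1.22-fold (TIA1 KO) and at least 1.51-fold (TIAR KO), neither called.

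Other Qa region genes fell too. H2-Q6 went from 14.27 and 13.74 (WT) to 11.02 and 10.83 (TIAR KO), a log2 change of −3.08, and H2-Q7 from 14.42 and 14.23 to 11.25 and 11.72, a log2 change of −2.84. Both H2-Q2 probes fell, by 2.37 and 2.32, and H2-Bl fell by 2.93 from 12.60 and 12.74. The H2-Bl probe, like that of H2-Q5, has no genome position and was not matched to RefSeq. The call of the brighter H2-Q2 probe (2.37) was lost under 3 of the 13 alternatives. H2-T23, which encodes the Qa-1 heavy chain seen by inhibitory receptors of natural killer cells, fell less, by 1.86, from 14.53 and 14.83 to 12.83 and 12.81. H2-Q10, at 10.76 and 10.46 (WT), fell by 1.27 on one of its 2 probes, the other being near background on all arrays.

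Other class Ib genes that were clearly measured did not pass the test in TIAR KO MEF. H2-Q4 read 13.20 and 12.83 (WT) and 13.00 and 12.94 (TIAR KO), a change of −0.05 ± 0.18. H2-T10 read 10.53 and 10.67 (WT) and 10.49 and 10.67 (TIAR KO), and H2-T9 11.33 and 11.47 against 11.57 and 11.45. In TIA1 KO MEF these read 8.86 and 9.40 and 10.05 and 10.48, below both other groups without overlap, although neither difference passed the adjusted test (adjusted p = 0.0639 and 0.0790 against WT MEF). H2-M3, which presents peptides with formyl methionine, read 10.54 and 9.94 (WT), 11.77 and 11.62 (TIA1 KO) and 10.94 and 11.53 (TIAR KO), and was not called.

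H2 genes are similar in sequence, so the probes were compared with each other. Of 2485 pairs of member probes, each 60 bases long, 7 pairs of different genes shared a run of at least 15 identical bases, and they involved 11 probes. The pairs with the 2 runs below are shown because they tie class Ib genes that fell to another gene. The capitals mark the shared run, of 29 bases between H2-K1 and H2-T23 and of 19 bases between H2-Q2 and H2-Q10.
H2-K1 (second probe): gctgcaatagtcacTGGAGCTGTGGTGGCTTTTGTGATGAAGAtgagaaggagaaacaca
H2-T23: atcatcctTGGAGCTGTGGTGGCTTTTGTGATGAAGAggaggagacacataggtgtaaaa
H2-Q2 (second probe): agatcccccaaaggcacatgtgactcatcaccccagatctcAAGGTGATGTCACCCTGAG
H2-Q10 (called probe): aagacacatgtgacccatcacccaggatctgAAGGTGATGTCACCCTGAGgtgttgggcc
H2-Q7 shared 28 bases with one H2-K2 probe and 19 with the other. The values of these genes are uncertain to the extent that RNA of one binds the probe of another. The brightest H2-K1 probe and the H2-D1, H2-Q5, H2-Q8, H2-Bl and H2-M2 probes shared no such run with a probe of another member gene. Probes were compared with probes and not with whole transcripts. The comparison therefore cannot tell whether these probes also bind RNA of another H2 gene. How the H2 alleles of the 3 strain labels match these probes was not analysed here.

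B2m, the light chain that all class I heavy chains need, read 16.67 and 16.72 (WT), 16.07 and 16.13 (TIA1 KO) and 16.11 and 15.27 (TIAR KO). Both knockouts were below WT MEF without overlap, but the changes (−0.60 ± 0.15 and −1.01 ± 0.29) did not pass the test (adjusted p = 0.111 and 0.126). In TIAR KO MEF the 2 arrays differed by nearly as much as the mean change.

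The transporter genes fell in TIAR KO MEF. Tap1 read 8.74 and 8.79 (WT), 7.14 and 7.71 (TIA1 KO) and 7.40 and 7.29 (TIAR KO), where neither array rated it well above background. Its fitted fall in TIAR KO MEF was 2.68-fold (adjusted p = 0.00524), and the bound described next equals it. A fold given as at least sets each array of the dimmer group to the higher of 2 values. These are the probe's own value and the lowest value rated well above background on that array. That lowest value was 8.03 and 5.78 (TIA1 KO), so such a bound is not a strict detection limit. Tap2 read 11.30 and 11.47, 10.23 and 9.35, and 10.09 and 9.94, a fall of 1.36 in TIAR KO MEF (adjusted p = 0.00772) that was not called without TIAR KO replicate 2 (0.0519), with the processed signal (0.0519) or with all 3 groups in one fit (0.073). In TIA1 KO MEF neither was called: Tap1, at background there, lay at least 1.87-fold below WT MEF, and Tap2 lay 1.59 below it on the log2 scale. The genes that hold and trim peptides in the endoplasmic reticulum read higher in TIAR KO than in WT MEF, without passing the test. Tapasin (Tapbp) read 13.05 and 12.65 (WT) and 13.61 and 14.57 (TIAR KO), a change of 1.24 ± 0.35 (adjusted p = 0.113). Its relative Tapbpl read 9.30 and 9.70 against 9.90 and 9.87. The aminopeptidase Erap1 read 7.76 and 8.30 (WT), 7.17 and 7.45 (TIA1 KO) and 8.64 and 8.86 (TIAR KO). None of these 3 was called against WT MEF.

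Of the immunoproteasome, 2 subunits fell in both knockouts and the third did not. Psmb8 read 10.80 and 9.89 (WT), 6.94 and 7.38 (TIA1 KO) and 7.58 and 7.69 (TIAR KO). Its fall was at least 6.21-fold in the first knockout (adjusted p = 0.0358) and 6.51-fold in the second (adjusted p = 0.00846). These Psmb8 calls were lost under 4 and 2 of the 13 alternatives. Psmb9 read 9.79 and 10.41, 8.08 and 7.64, and 7.83 and 7.82, with fitted falls of 4.72-fold and 4.84-fold. Neither TIA1 KO array rated it well above background, and its bound there equals the fitted fold. The second Psmb9 probe was near background on all arrays. Psmb10, the subunit encoded outside the H2 complex, on chromosome 8, read 14.15 and 14.38, 14.15 and 14.22, and 14.20 and 13.40 and was not called. None of the 6 genes of a list of constitutive proteasome counterparts (Psmb5, Psmb6, Psmb7, Pomp, Psme3 and Psme4) was called in any comparison by limma. Over all probes 1.36% to 3.39% were called in a given direction, so a count of 0 among 6 genes does not set this list apart.

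Psme1 and Psme2, which form the PA28 activator of the proteasome, went the other way in TIAR KO MEF. Psme2 rose from 14.57 and 14.63 to 16.15 and 16.18, a 2.96-fold rise (adjusted p = 0.00347), and read 14.74 and 14.76 (TIA1 KO). Psme1 read 13.99 and 14.04 (WT) and 14.91 and 14.91 (TIAR KO), which passed the adjusted p (0.0213) but stayed under 2-fold. A further Psme2 probe, whose ends lie at 56209736 and 56429032 of chromosome 14 and whose accession was not matched to Psme2, gave another picture: it read 6.72 and 6.53 (WT), 9.10 and 10.10 (TIA1 KO) and 7.83 and 7.27 (TIAR KO). It was the member probe called up in TIA1 KO MEF, at least 6.56-fold (adjusted p = 0.0402), and differs from the other Psme2 probes by more than 2 on the log2 scale there. Probes of 1 gene also differed in sign by more than 1 in a comparison for H2-Ob, H2-T18, H2-M9, H2-T3, H2-M10.3 and H2-T24, each probe well above background on at most 3 of the 6 arrays, and for H2-M2 and H2-Q10 between a bright and a dim probe. Of these, H2-T24 and H2-M10.3 had 1 high TIAR KO array each (9.58 against 7.30 and 8.95 against 6.65).

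**Figure D2:**
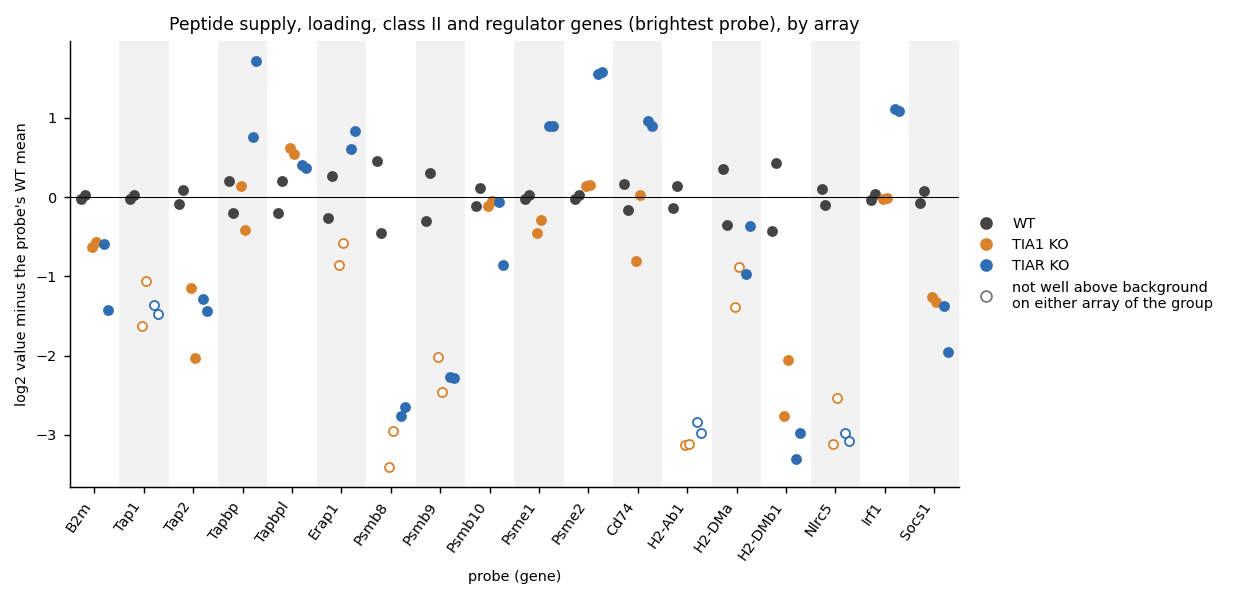
Log2 value of each array minus the probe's WT mean (vertical axis) for genes of peptide supply, loading, class II and their regulators (horizontal axis, brightest probe of each), with 1 point per array and open points for groups not well above background on either array. Psmb8, Psmb9, H2-Ab1 and Nlrc5 lie 2 or more below the WT mean in both knockouts, while the TIAR KO arrays of Psme1, Psme2 and Irf1 lie above all arrays of the other groups.

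Most class II genes were not measurable in these cells, and 8 of the 15 probes were well above background on no array. Ciita, at 7.43 and 7.19 (WT), H2-Aa, at 6.70 and 6.71, H2-Oa and H2-Ea-ps were at background in all groups. H2-Ab1, the β chain of the class II molecule I-A, was well above background on both WT arrays: it read 9.79 and 10.07 there, 6.80 and 6.82 (TIA1 KO) and 7.10 and 6.95 (TIAR KO). This was a fall of at least 5.69-fold (adjusted p = 0.00796) and at least 6.87-fold (adjusted p = 0.000937). Its second probe, which shares 41 bases with the first, gave at least 3.61-fold and 5.81-fold. H2-DMb1, a subunit of the class II peptide exchanger, read 10.65 and 11.51 (WT), 8.31 and 9.03 (TIA1 KO) and 7.77 and 8.10 (TIAR KO) and was called in TIAR KO MEF (−3.14 ± 0.32, adjusted p = 0.00524). Its partner H2-DMa read 9.18 and 8.47, 7.44 and 7.94, and 7.86 and 8.45 and was not called. The invariant chain Cd74 read 8.62 and 8.30, 7.65 and 8.49, and 9.42 and 9.35, a TIAR KO value above WT MEF under 2-fold (0.93, adjusted p = 0.0360). Of the 15 class II probes, 3 (TIAR KO) and 2 (TIA1 KO) were called down, all of H2-Ab1 and H2-DMb1, where 2.37% and 1.36% of all probes were.

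Markers of leukocytes and antigen-presenting cells were read on the same arrays. Of 13 genes, Ptprc, Itgax, Emr1 and Lyz2 were among those well above background on none of the 6 arrays. The mean log2 value of the list was 8.54 and 8.50 (WT), 8.43 and 8.39 (TIA1 KO) and 8.38 and 8.34 (TIAR KO). Aif1, at 8.46 and 8.59 (WT), was at background in both knockouts, at least 2.08-fold lower in one (TIA1 KO, adjusted p = 0.0518, not called) and at least 2.56-fold lower in the other. Cd14 fell in TIAR KO MEF from 12.10 and 12.45 to 10.91 and 11.00. Itgam rose by 1.82 in TIA1 KO MEF on its brightest probe, while its other probes gave −0.53 and −0.78 near background. Cd68 was higher in TIAR KO than in TIA1 KO MEF by 1.48. Of the endothelial genes, Kdr was called up in TIAR KO MEF on the dimmer of its probes, by at least 2.33-fold. The epithelial genes Krt18 (from 7.29 and 7.30 to 10.08 and 9.95) and Cdh1 were higher in TIAR KO MEF, and Krt8 in both knockouts. Their part in the H2 values was not tested.

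Among names beginning with H2- are genes outside antigen presentation. H2-Ke6, which encodes a hydroxysteroid dehydrogenase, rose in TIAR KO MEF from 11.40 and 11.31 to 12.94 and 12.83 and read 11.47 and 11.45 (TIA1 KO). H2-Ke2, a prefoldin subunit, was not called. H2-K2, a class I sequence next to H2-K1, followed H2-K1: its brightest probe read 16.05 and 16.05, 15.01 and 15.03, and 13.24 and 13.03, a 7.52-fold fall in TIAR KO MEF.

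**Figure D3:**
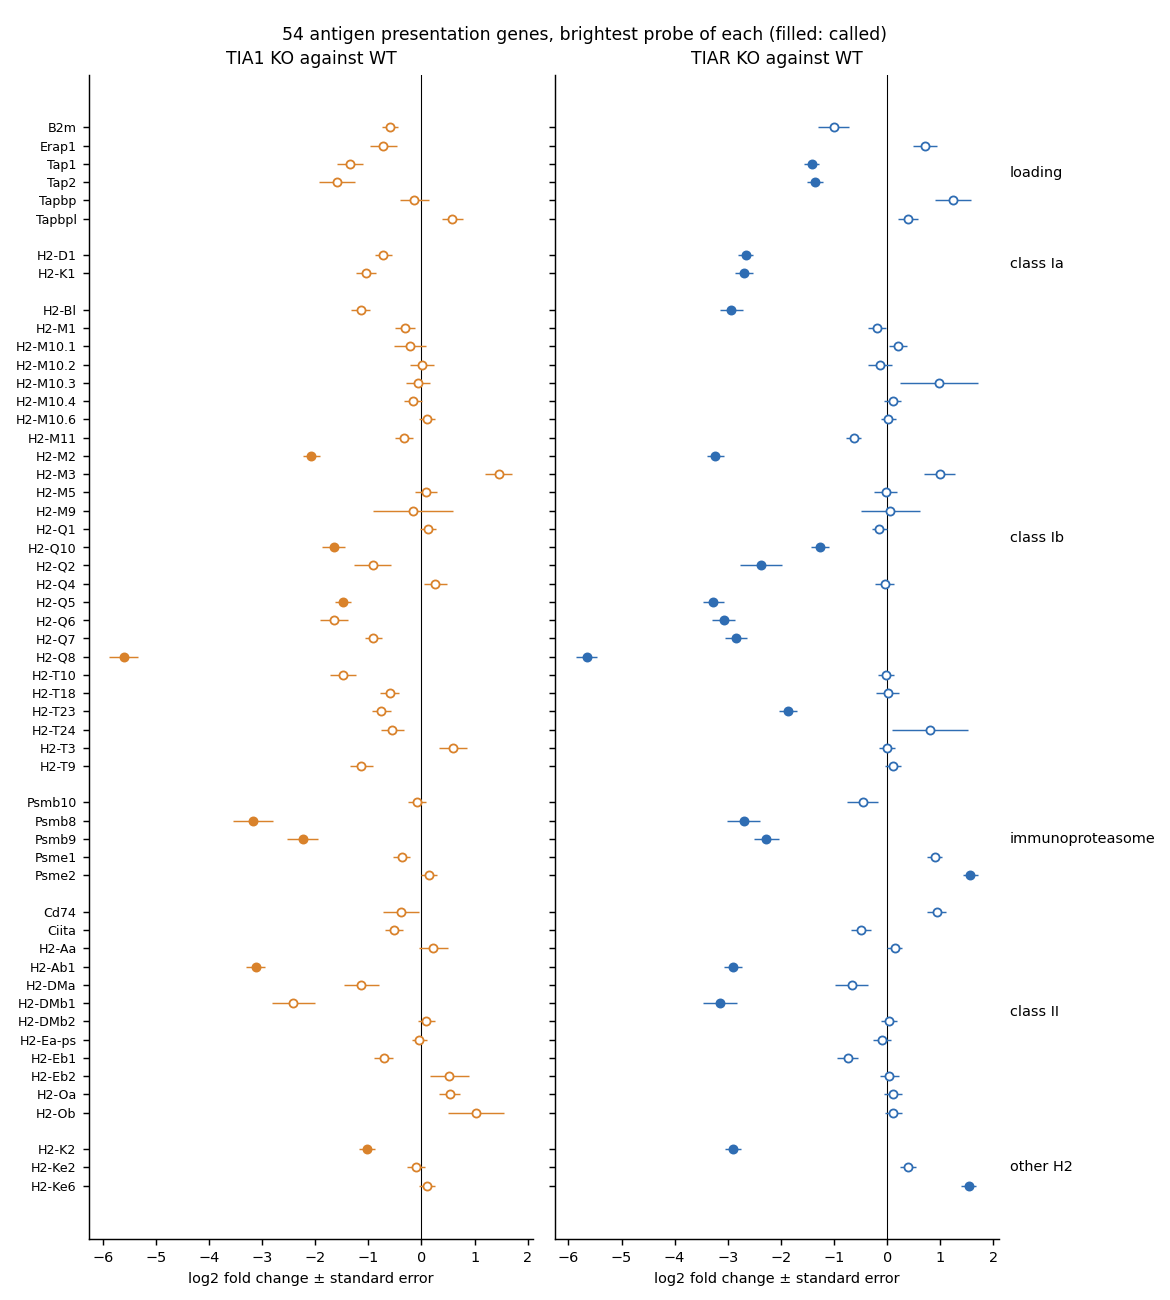
Log2 fold change against WT MEF with its standard error (horizontal axes, limma, 2 arrays per group) for the brightest probe of each of the 54 genes, grouped by role, in TIA1 KO MEF (left) and TIAR KO MEF (right), with called probes filled. In TIAR KO MEF both class Ia genes and 9 of 26 class Ib genes are called down, where 2.37% of all probes are. In TIA1 KO MEF 0 and 4 are, where 1.36% of all probes are. Of the 35 class Ib probes, 17 were well above background on no array.

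In TIA1 KO MEF fewer members were called. Of the 71 probes, 9 were down, where 1.36% of all probes were, and 1 was up, where 2.18% were. The genes called down were H2-Q8, H2-Ab1, Psmb8, Psmb9, H2-M2, H2-Q10, H2-Q5 and H2-K2. H2-Q8 fell by at least 35.1-fold (adjusted p = 0.0059), and H2-M2 fell by 2.07 from 12.93 and 13.05 to 10.86 and 10.98. H2-Q5 fell by 1.48, H2-Q10 by 1.65 and H2-K2, at the edge of the thresholds, by 1.03 (adjusted p = 0.0493). H2-K1 (−1.04 ± 0.18, adjusted p = 0.0733) and H2-D1 (−0.72 ± 0.16, adjusted p = 0.0968) were not called, although both TIA1 KO arrays lay below both WT arrays.

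These calls depended on the arrays in the fit more than those of TIAR KO MEF did. Without WT replicate 1, or without WT replicate 2, none of the 55681 probes was called in TIA1 KO MEF, and no member. Without TIA1 KO replicate 2 there were 18 members down and 6 up, where 9.26% and 10.0% of all probes were, and with all 3 groups in one fit 18 down and 3 up, where 3.78% and 3.38% were. With the replicate numbers as a block, 5 were down, where 0.298% of all probes were. Scaling the processed signal to its 75th percentile, which moved the median of all probes to 1.98, gave 0 calls by limma in TIA1 KO MEF over all 55681 probes, whereas a common array median, which moved it to −0.67, gave 35 members and 25.0% of all probes down. In TIAR KO MEF between 20 and 24 of the 24 calls held in each alternative that kept all arrays. Up to 23 members were down in these, where 1.75% to 5.53% of all probes were.

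The knockouts were also set against each other. Of the member probes, 11 were lower in TIAR KO than in TIA1 KO MEF, where 1.63% of all probes were, and 4 were higher, where 1.72% were. All 3 class Ia probes were among the lower ones: H2-D1 by 1.94 (adjusted p = 0.0192) and H2-K1 by 1.65 (adjusted p = 0.0222) and 1.64. H2-Bl, H2-Q2, H2-Q5, H2-Q6, H2-Q7, H2-T23 and both H2-K2 probes were lower as well, by 1.10 to 1.94. Erap1 (1.44, at least 2.02-fold), Psme1 (1.27), Psme2 (1.42) and H2-Ke6 (1.42) were higher. Tap2 did not pass this test (0.23, adjusted p = 0.698). H2-Ab1 and Tap1 were well above background on none of the 4 knockout arrays, and H2-Q8, Psmb8 and Psmb9 on none of the TIA1 KO arrays, so a difference between the knockouts could not be read for these. The test gave no call on any probe without either TIAR KO array or with the replicate block, and scaling to a common array median, which moved the median of all probes to 0.63, gave H2-K1 −0.51, H2-D1 −0.80 and H2-T23 0.0364.

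Taking the arrays singly, both WT arrays exceeded both TIA1 KO arrays and these exceeded both TIAR KO arrays in 16 of the 70 member probes with all 6 values, where 2.50% of all such probes had that order. They included all 3 class Ia probes and 9 of 34 class Ib probes, but 1 of 8 of the immunoproteasome, 1 of 15 of class II and 0 of 6 of the light chain and loading genes. Tap1 and H2-Ab1 were at background in both knockouts and Psmb8 and Psmb9 in TIA1 KO MEF, so the order of the knockouts could not be read for them. Of the 16 probes, 2 were well above background on no array, among them the immunoproteasome probe, the second of Psmb9. These counts are a description without a test.

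By position, 56 member probes lie within 3.55 Mb of chromosome 17 (34065963 to 37618439, mm9). Of the 25 probes up to 0.5 Mb from H2-K1, where the class II, transporter and immunoproteasome genes lie, 11 were called down and 1 up in TIAR KO MEF. Of the 10 probes between 1 and 2 Mb away, the H2-D and H2-Q genes, 7 were called down. Beyond 2 Mb, in the H2-T and H2-M genes, 2 of 21 were called down, H2-T23 and H2-M2, where 2.37% of all probes were. Of the probes of these 3 stretches, 8, 2 and 12 were well above background on no array, and the part of this in the counts was not tested. In TIA1 KO MEF the counts down were 5, 2 and 1, where 1.36% of all probes were.

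**Figure D4:**
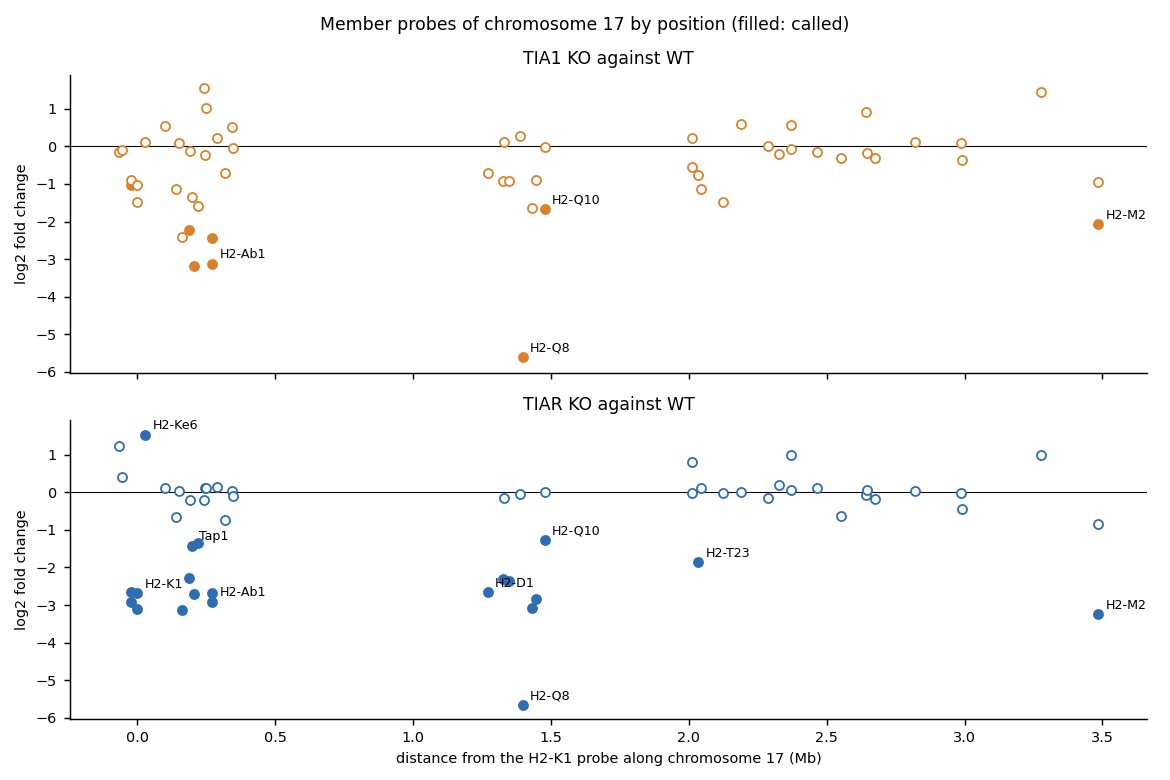
Log2 fold change against WT MEF (vertical axes) of the 56 member probes of chromosome 17 by their distance in Mb from the brightest H2-K1 probe (horizontal axis), for TIA1 KO MEF (top) and TIAR KO MEF (bottom), with called probes filled and some genes named. Called and uncalled probes lie side by side in the first 2 stretches, and few beyond 2 Mb are called.

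The regulators of these genes were read from a list of 21 genes of class I and class II transcription and interferon gamma signalling. In TIAR KO MEF 2 genes fell and 1 rose, where 2.37% and 3.39% of all probes did, and in TIA1 KO MEF 2 fell, where 1.36% of all probes did. Nlrc5, the class I transactivator, read 10.25 and 10.05 (WT), 7.03 and 7.61 (TIA1 KO) and 7.17 and 7.06 (TIAR KO). The falls were at least 5.02-fold (adjusted p = 0.0206) and at least 7.77-fold (adjusted p = 0.000661). Its second probe, at background in both knockouts, gave bounds of at least 1.74-fold and at least 1.82-fold, both under 2-fold. In the fit it was called down in TIA1 KO MEF (adjusted p = 0.0338) and was not called in TIAR KO MEF. The TIA1 KO call of Nlrc5 was lost without either WT array (adjusted p = 0.310 and 0.299), with the processed signal (0.0587) and with the replicate block (0.0547).

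Socs1, an inhibitor of interferon signalling that interferon gamma itself induces, fell in both knockouts, from 12.16 and 12.31 to 10.97 and 10.91 (TIA1 KO) and to 10.87 and 10.28 (TIAR KO). The first call was lost without either WT array and under 4 other alternatives, and the second without WT replicate 2 and with the processed signal. The factor Irf1, which activates class I genes, read 12.70 and 12.78, 12.72 and 12.72, and 13.85 and 13.82. It was higher in TIAR KO MEF by 1.10 ± 0.14 (adjusted p = 0.0115) and was not called without WT replicate 1 or either TIAR KO array. Rfx5, a factor that binds class II promoters, was not well above background in WT MEF on the brightest probe and was not called. The receptors Ifngr1 and Ifngr2 and the kinases Jak1 and Jak2 were well above background on all arrays and not called.

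Of 5 chaperones that fold class I chains in the endoplasmic reticulum, calnexin (Canx) rose in both knockouts, from 15.57 and 15.54 to 16.59 and 16.63 (TIA1 KO) and 16.77 and 16.52 (TIAR KO), and calreticulin (Calr) read 17.33 and 17.39 (TIA1 KO), 2.29-fold above WT MEF but not called (adjusted p = 0.0576), and 17.29 and 17.10 (TIAR KO), called at 2.04-fold. The Canx call in TIA1 KO MEF was lost under 9 of the 13 alternatives, without either WT array or TIA1 KO replicate 1 among them. With a common array median both genes lay below WT MEF there (−0.50 and −0.33). Over all probes, 2.18% (TIA1 KO) and 3.39% (TIAR KO) were called up. Both TIAR KO calls were lost under several alternatives, the common array median and leaving out either TIAR KO array among them. Among 7 class I-like genes outside the H2 complex, 1 was called down in TIAR KO MEF, where 2.37% of all probes were. This was Fcgrt, the neonatal Fc receptor, which fell by 1.02, at the edge of the fold threshold (2.03-fold). In a list of 6 genes of endosomal class II processing none was called against WT MEF. Over all probes 1.36% to 3.39% were called there in a given direction, so a count of 0 does not set these genes apart. Ifi30, a lysosomal thiol reductase, and March8, a ligase that acts on class II, were higher in TIAR KO than in TIA1 KO MEF, by 1.29 and 1.56. Of all probes, 1.72% were called higher in that comparison.

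Sequences before the gene starts were read from RefSeq (GRCm38.p6, from C57BL/6J), which held a promoter for 38 of the 54 genes. The 250 bases before each start were searched on both strands for letters known from class I promoters. The 11 bases GGGGATTCCCC, known as a binding sequence of NF-kappaB, were taken from −111 to −101 of H2-K1 as a run that H2-D1 shares. Their presence in H2-K1 and H2-D1 was therefore fixed by that choice. They were found in 0.0304% of 32851 promoters of all genes and in 3 members, H2-K1, H2-D1 and H2-Q6. TGACGC, found in 6.12% of promoters, was in H2-K1, H2-D1, H2-M3 and Psme2. ATTGG was in 33.8% of promoters and in 29 of the 38 members, 15 of 18 class Ib and 7 of 8 class II promoters among them, and is the CCAAT box on its other strand. TTCNNNGAA, which occurs in promoters that answer to interferon gamma, was in 7.02% of promoters and in 4 members, Psmb8, H2-DMb2, H2-M11 and H2-M3. The first 3 motifs do not overlap each other in the stretches shown.

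The stretches of H2-K1, H2-D1, H2-Q6, H2-Q7 and H2-Q4 are shown because the first 4 genes fell in TIAR KO MEF and H2-Q4 read about the same in all groups. Each holds 117 bases on the strand of its gene, ending before the start, with the 3 motifs in capitals where they occur.
H2-K1 (chr17:34000349-34000465, minus strand): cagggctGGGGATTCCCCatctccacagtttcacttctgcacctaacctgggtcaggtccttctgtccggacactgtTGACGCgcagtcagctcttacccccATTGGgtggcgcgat
H2-D1 (chr17:35262916-35263032, plus strand): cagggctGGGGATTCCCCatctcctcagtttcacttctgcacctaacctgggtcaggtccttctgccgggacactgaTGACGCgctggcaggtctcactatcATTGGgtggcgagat
H2-Q6 (chr17:35424669-35424785, plus strand): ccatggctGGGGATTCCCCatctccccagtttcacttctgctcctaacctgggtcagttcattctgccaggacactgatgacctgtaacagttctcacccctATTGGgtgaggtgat
H2-Q7 (chr17:35439013-35439129, plus strand): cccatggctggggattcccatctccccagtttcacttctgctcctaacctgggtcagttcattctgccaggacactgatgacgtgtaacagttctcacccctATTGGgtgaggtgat
H2-Q4 (chr17:35379436-35379552, plus strand): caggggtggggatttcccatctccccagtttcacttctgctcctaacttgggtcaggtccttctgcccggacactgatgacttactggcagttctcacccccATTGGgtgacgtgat
H2-Q7, which fell 7.16-fold, holds only the last of the 3 motifs as an exact match in this stretch, as does H2-Q4, which was not called. Near matches, which both stretches hold, were not counted.

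Tap1 and Psmb9 start 225 bases apart on opposite strands and share the stretch between them, shown because both fell in TIAR KO MEF. It is written on the strand of Tap1, with the CCAAT box in capitals.
Tap1 and Psmb9 (chr17:34187331-34187555, plus strand): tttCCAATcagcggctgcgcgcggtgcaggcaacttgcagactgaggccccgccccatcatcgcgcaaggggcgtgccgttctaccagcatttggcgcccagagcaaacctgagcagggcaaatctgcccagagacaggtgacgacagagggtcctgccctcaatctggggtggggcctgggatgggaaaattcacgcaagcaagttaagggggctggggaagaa
A match describes the letters of the reference strain and not a bound site.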

How the data were processed

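The authors deposited, for each of the 6 arrays, the scanner software's spot intensities (Agilent Feature Extraction 10.7.3.1, probe positions on mm9), with no scaling from array to array, and 1 table of normalized log2 values that they had computed. Mean intensities and median local backgrounds were corrected by normexp (offset 50), log2 transformed, passed through cyclic loess once, quantile normalized, freed of control and outlier spots and averaged by probe. No probe was left out for low intensity. The authors' log2 table served as an alternative and correlated with these values at 0.9972 to 0.9995 per array. The offset makes fold changes of dim probes smaller.

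Each comparison was fitted with limma 3.58.1 (lmFit, eBayes; R 4.3.3) on its own 4 arrays, with Benjamini-Hochberg adjustment over all 55681 probes. A gene was read from its brightest probe. Named were Tia1 and Tial1, the non-H2 members with H2-K1 and H2-D1, every member called in a comparison, genes whose probes disagreed, every called gene of the pathway lists, and Nlrc5, Irf1 and Rfx5. Some genes of the lists are not reported here. Other genes were named after their values were seen. The members and lists were chosen with earlier results of these data known. The fits were tested on simulated data. Symbols were matched to RefSeq (GRCm38.p6) by accession for 58 of 71 probes, 1 with another symbol there (H2-Ke2). The 13 alternatives are given in the closing section. Replicate numbers did not pair the arrays.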

Additional observations from a re-analysis of the deposited data

Results flagged for a closer look

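The member probes below differed between TIAR KO and TIA1 KO MEF in the direct limma test, so in this fit the 2 knockouts did not stand in the same relation to WT MEF for them. Each of these 15 calls was lost under some alternative, and 0 were called under every one. Lower in TIAR KO MEF, as log2 differences, were H2-D1 (−1.94, adjusted p = 0.0192), H2-K1 on both probes (−1.65 and −1.64), H2-K2 on both probes (−1.75 and −1.88), H2-Bl (−1.79), H2-Q2 on its second probe (−1.39), H2-Q5 (−1.80), H2-Q6 (−1.44), H2-Q7 (−1.94) and H2-T23 (−1.10, adjusted p = 0.0463). Higher in TIAR KO MEF were Erap1 (1.44, adjusted p = 0.0440), Psme1 (1.27), Psme2 on its brightest probe (1.42) and H2-Ke6 (1.42). In each of these probes both arrays of one knockout lay on the same side of both arrays of the other, which largely follows from choosing them by this test. The cause was not tested, and strain, cell line and slide row cannot be told apart from genotype.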

How the results depend on the processing

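The 24 calls of TIAR KO against WT MEF kept their direction under all 13 alternatives, and 18 of them were called under each; those of Psmb8, H2-Q10 and one H2-Q2 probe were lost without either TIAR KO array (H2-Q10 also without WT replicate 1 and H2-Q2 without WT replicate 2), that of Tap2 without TIAR KO replicate 2, and those of H2-Q10, Tap2, H2-Ke6 and Psme2 with the processed signal. There were 18 to 23 members down and 0 (processed signal) to 4 up; leaving out 1 array gave 18 to 21 down and 2 to 4 up, and the replicate block changed none of these calls (22 down, 2 up). The authors' log2 table gave the same 24 calls. In the alternatives that kept all arrays, 1.75% to 5.53% of all probes were down and 2.56% to 7.7% were up. The 10 calls of TIA1 KO against WT MEF kept their direction but not their significance. Members down and up were 9 and 1 as reported, 0 and 0 with the processed signal scaled to its 75th percentile (which moved the median of all probes to 1.98, and the class Ib and class II medians to 1.97 and 2.76), 35 and 2 with a common array median (median of all probes −0.67, and 25.0% of all probes down), 17 and 2 among probes well above background (6.90% and 5.57% of all such probes), 18 and 3 with all 3 groups in one fit (3.78% and 3.38%), 5 and 0 with the replicate block, and 8 and 2 with an offset of 16. Leaving out 1 array gave 0 to 18 down and 0 to 6 up, the highest counts without TIA1 KO replicate 2 (9.26% and 10.0% of all probes). For TIAR KO against TIA1 KO MEF, 11 down and 4 up became 1 and 0 with the processed signal (median of all probes −1.85), where 2.49% and 0.224% of all probes were called. They were 7 and 2 with an offset of 16 (1.43% and 1.34% of all probes) and 7 down without loess (1.39%). With a common array median (median of all probes 0.63) they were 2 and 12, where 1.91% and 13.0% of all probes were. The authors' log2 table gave 6 and 2 (1.2% and 1.1%). Among probes well above background they were 14 and 7 (4.63% and 7.48% of all such probes). All 3 groups in one fit gave 14 and 7 as well (2.50% and 3.22%), and the replicate block gave 0 and 0. Leaving out 1 array gave 0 to 18 down and 0 to 8 up, the highest counts without TIA1 KO replicate 2, where 9.33% and 8.78% of all probes were called. With a common array median, H2-T23 changed sign between the knockouts (0.0364) and Psme2 in TIA1 KO MEF (−1.45). Several other changes that were not called also took both signs over the alternatives. Among them were B2m (−0.83 to 0.70) and Psmb10 (−0.78 to 0.76) between the knockouts, and Tapbpl in TIA1 KO MEF (−0.59 to 0.79). The cause was not tested. Numbers 1 and 2 did not pair the arrays (correlations of deviations 0.08, 0.03 and −0.07). With 2 arrays a group, and TIA1 KO arrays of higher background, changes of dim probes are uncertain.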
